A study of Mus musculus with 9 samples.

Results

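Chemokine and chemokine receptor genes were followed in mouse liver on a regular diet, on a high-fat diet, and on a high-fat diet with a plant extract. All genes with a single symbol on the array were taken whose symbol starts with Ccl, Cxcl, Ccr, Cxcr or Xcr and a number, or with Cx3c, or is Xcl1. This gave 52 of the 22180 genes measured, 34 ligands and 18 receptors. Liver RNA of C57BL/6 mice (the strain entry reads C56BL/6J) was hybridised to 9 whole-transcript arrays, 3 per group. The groups were mice on a regular diet with vehicle, mice on a high-fat diet with vehicle, and mice on a high-fat diet given 500 mg/kg of an extract of ginseng flower buds by mouth every day for 12 weeks. All mice were 5 weeks old to begin with and were fasted overnight before the liver was taken. Sex, the fat content of the diet, and whether each array is a separate mouse are not given in the sources used here, so the p-values measure only the spread between these samples, which may be technical.

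Chemokines are small secreted proteins that direct the movement of leukocytes along concentration gradients. They are sorted by the spacing of their first cysteines into CXC, CC, C and CX3C families, and they act on receptors with a membrane-spanning serpentine fold that signal through inhibitory G proteins. Several are made by hepatocytes, Kupffer cells (the resident macrophages of the liver), sinusoidal endothelium and stellate cells during liver inflammation. Many inflammatory members are switched on by the transcription factor NF-kappaB, and the ligands of the receptor CXCR3 by interferon gamma.

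Promoters are shown for the gene that passed the test, for its close relative Cxcl2, and for Cxcl9 and Cxcl10, which had the largest diet differences among the chemokine genes that did not pass. They come from RefSeq, assembly GRCm38.p6, and run 5′ to 3′ on the strand of the gene over the 250 bases before its start. Capitals mark GGANTTTCC, a narrow form of the core of an NF-kappaB site, and GAAANNGAA, the core of an interferon response element. Both were marked on either strand, and N is any base. Other forms of an NF-kappaB site were not searched, so a promoter without this mark may still hold one. The Cxcl1 promoter lies at chr5:90890995-90891244 on the + strand, that of Cxcl2 at chr5:90903649-90903898 on the + strand, that of Cxcl9 at chr5:92328080-92328329 on the - strand, and that of Cxcl10 at chr5:92348890-92349139 on the - strand.
Cxcl1: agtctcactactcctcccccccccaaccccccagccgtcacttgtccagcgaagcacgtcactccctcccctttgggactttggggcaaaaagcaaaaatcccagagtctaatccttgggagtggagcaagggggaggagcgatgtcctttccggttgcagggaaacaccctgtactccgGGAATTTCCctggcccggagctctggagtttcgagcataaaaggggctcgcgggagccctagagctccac
Cxcl2: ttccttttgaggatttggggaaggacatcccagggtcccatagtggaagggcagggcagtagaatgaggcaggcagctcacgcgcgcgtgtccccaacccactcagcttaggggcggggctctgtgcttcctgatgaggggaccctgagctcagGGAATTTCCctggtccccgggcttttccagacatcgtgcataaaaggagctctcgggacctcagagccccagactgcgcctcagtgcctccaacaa
Cxcl9: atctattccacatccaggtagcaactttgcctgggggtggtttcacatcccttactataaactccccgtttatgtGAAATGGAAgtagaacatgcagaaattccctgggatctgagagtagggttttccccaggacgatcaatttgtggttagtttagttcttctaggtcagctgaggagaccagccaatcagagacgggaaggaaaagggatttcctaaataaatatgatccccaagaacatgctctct
Cxcl10: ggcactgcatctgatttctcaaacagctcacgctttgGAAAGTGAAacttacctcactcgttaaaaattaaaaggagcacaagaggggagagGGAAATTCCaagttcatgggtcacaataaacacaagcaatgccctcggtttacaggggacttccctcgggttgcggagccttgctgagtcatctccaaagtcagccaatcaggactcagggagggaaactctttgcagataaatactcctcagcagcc

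Promoters were matched for 38 of the 52 genes. The NF-kappaB core was found in 5 of them (13.2%), those of Cxcl1, Cxcl2, Cxcl3, Cxcl10 and Ccr3, and in 1.07% of all 32851 promoters of the same length. Cxcl1, Cxcl2 and Cxcl3 carried the same letters, GGAATTTCC, beginning 70, 96 and 72 bases before the start. These genes are near neighbours in a cluster of related genes, so their matches are not independent of each other. The interferon response core was found in 7 of 38 (18.4%), including Cxcl9 and Cxcl10, against 7.13% of all promoters. A STAT site, TTCNNNGAA, stood in 4 (10.5%) against 7.02%, and TATAAA in 12 (31.6%) against 12.4%. The shares differ in unit. A chemokine gene counted once if any promoter listed for it matched, while the shares of all promoters are per promoter. The motifs were searched on both strands and can overlap, and a match is a run of letters, not a measured binding site.

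The values are log2 RMA levels of 1 probe set per gene, a summarised hybridisation signal. The median of all gene means, 4.74, serves as the background level here, since the arrays came without detection calls. By this measure 32 of the 52 genes (61.5%) had every group mean under background, against 48.4% of all genes, and 16 had every group mean at or above it. The 16 were Cxcl1, Cxcl9, Cxcl11, Cxcl12, Cxcl13, Cxcl14, Cxcl16, Ccl5, Ccl6, Ccl7, Ccl9, Ccl11, Ccl25, Ccl27a, Cxcr4 and Cx3cr1, that is 14 ligands and 2 receptors. The other 4, Cxcl10, Ccl2, Ccl24 and Ccr7, crossed the level between groups. Of the genes nearest to it, Ccr7 averaged 4.746 on the high-fat diet, Cxcl10 4.735 on the regular diet, Ccl11 at least 4.78 in each group and Cxcr5 at most 4.71. For 28 genes (53.8%) every single array lay under background, against 45.1% of all genes. Against a stricter level, the 95th percentile of 1105 odorant receptor genes (4.41), taken as not expressed in liver, 22 genes had every group mean underneath. A difference between groups that both lie under background is not told from background, and signals of different probe sets were not compared as amounts of RNA.

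**Figure D1:**
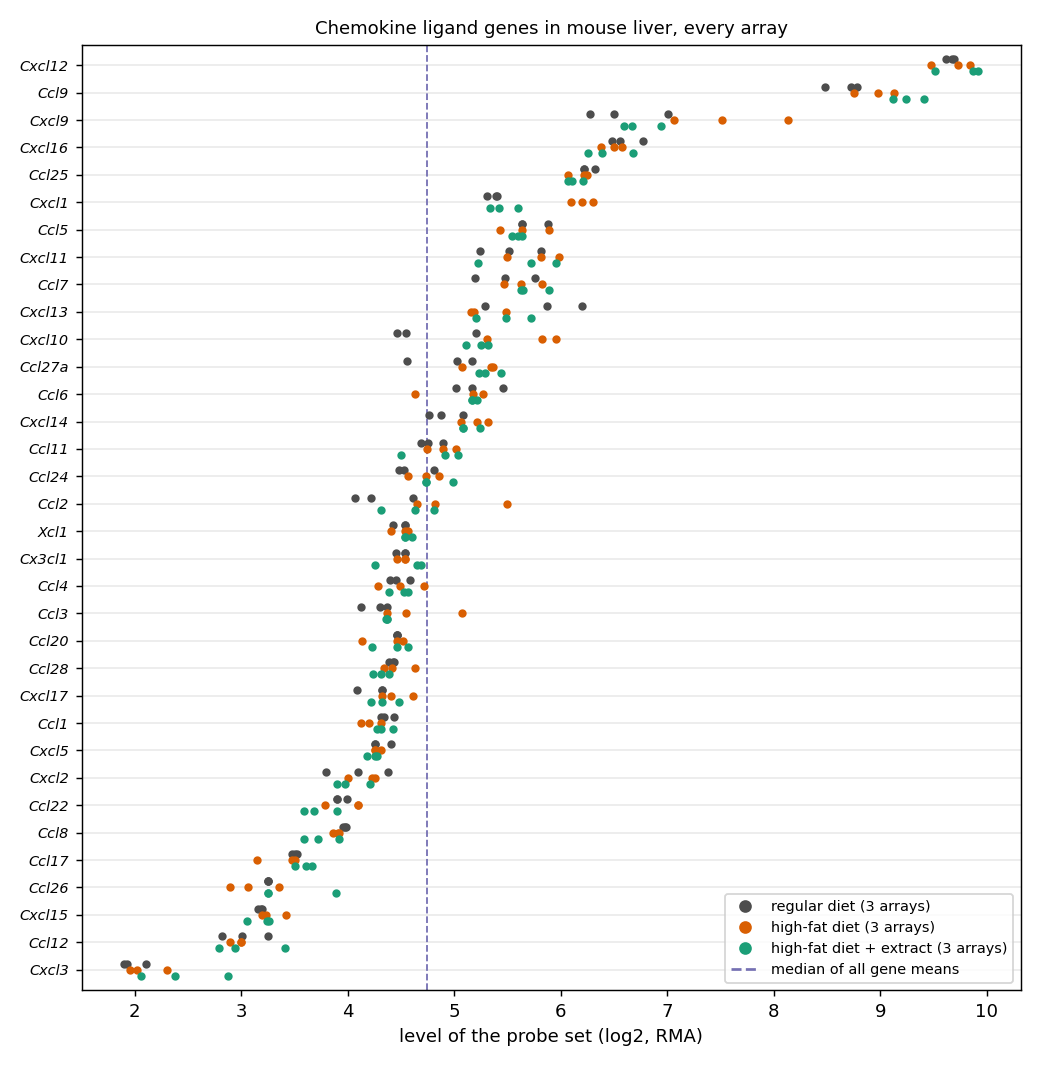
Level of each of the 34 chemokine ligand genes (rows) on every array, as log2 RMA value, with 3 points per diet group and the background level of 4.74 as a dashed line. In the Cxcl1 row the high-fat diet points, 6.10 to 6.30, stand clear of both other groups, 5.30 to 5.59. In the Cxcl9 row they also lie above both other groups, by a small gap. Every group mean is left of the line in 17 of the 34 rows.

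The effect of feeding was read from the vehicle groups, high-fat diet against regular diet. Cxcl1, a neutrophil attractant, rose 1.78-fold and was the 1 gene of the 52 that passed (1.92%), where 1.34% of all genes passed and 0.821% rose. Cxcl9 and Cxcl10, both ligands of CXCR3, and Ccl2, which recruits monocytes, were also higher on the high-fat diet, by 0.98, 0.96 and 0.68 on the log2 scale, without passing. Passing means an adjusted p under 0.05 in limma's moderated test, with Benjamini-Hochberg adjustment over the 22180 genes. At an unadjusted p under 0.05 there were 10 of the 52 genes (19.2%) against 13.3% of all genes. Of these 10, 9 were higher (17.3%, against 6.89% of all genes) and 1 lower (1.92%, against 6.39%). The 3 arrays of each group did not overlap for 7 of the 52 (13.5%), against 15.8% of all genes. Cxcl1, Cxcl9, Cxcl10, Ccl2, Ccr3 and Ccr7 lay higher on the high-fat diet (11.5%, against 7.93% of all genes) and Ccl8 lower (1.92%, against 7.86%). Over the 52 genes, 30 (57.7%) had a positive difference against 50.1% of all genes, and the median difference was 0.03. The 20 genes at or above background in some group had a median of 0.18, with 15 higher and 5 lower. Ccl2 and Ccr7 entered this set through the high-fat diet mean alone, which tilts its signs upward. No result is read from that set.

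**Figure D2:**
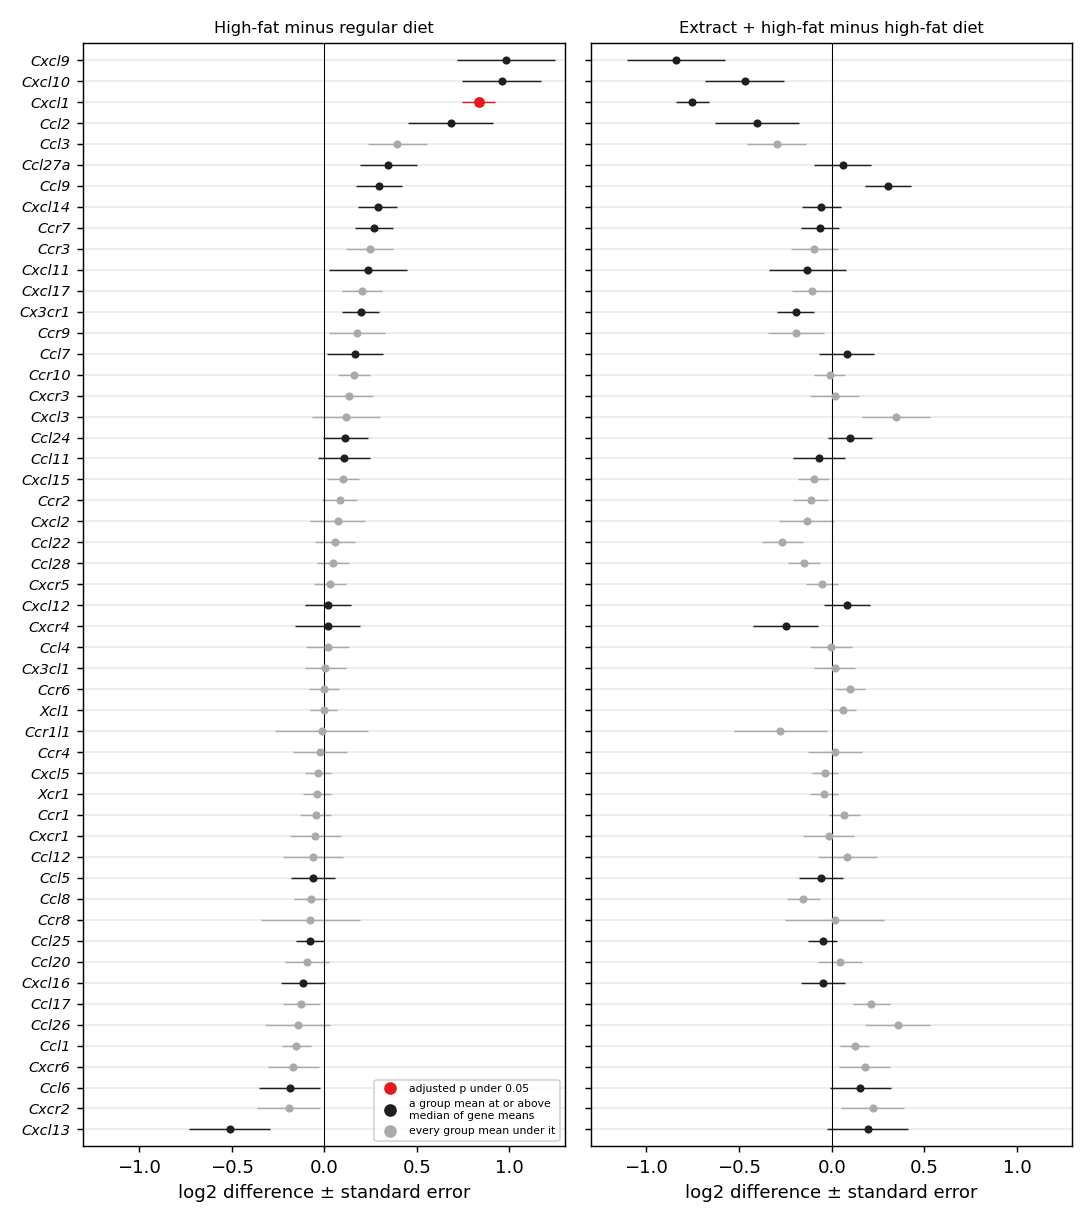
Log2 difference ± standard error of each of the 52 genes, high-fat minus regular diet on the left and extract with high-fat diet minus high-fat diet on the right, with genes sorted by the left panel and 3 arrays per group. Cxcl1, in red, is the gene with an adjusted p under 0.05, at 0.83 on the left and -0.75 on the right, and the grey genes had every group mean under the background level. The panels share the high-fat diet arrays, so opposite signs in them are not independent.

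Among the 5 neutrophil-attracting CXC ligands, Cxcl1 was the member above background. Its level was 5.40, 5.39 and 5.30 on the regular diet, 6.30, 6.10 and 6.20 on the high-fat diet, and 5.33, 5.42 and 5.59 with extract. All 3 high-fat diet arrays lay above the other 6. The group means were 5.36 ± 0.05, 6.20 ± 0.10 and 5.45 ± 0.13 (SD, n = 3). The diet difference was 0.83 ± 0.09 on the log2 scale (SE; 95% confidence interval 0.64 to 1.03; limma adjusted p = 0.00687). Cxcl1 was also the 1 gene of the 52 that passed limma's F test over the 3 groups (adjusted p = 0.00971), where 0.78% of all genes passed. That F test call was lost without regular-diet replicate 2 and without high-fat diet replicate 3, and Cxcl10 passed the F test as well without regular-diet replicate 1.

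With extract, the Cxcl1 level was 0.75 ± 0.09 lower than on the high-fat diet alone, or 1.68-fold, with a 95% confidence interval of -0.95 to -0.55. This did not pass over all genes in limma (adjusted p = 0.0851, from 0.0318 to 0.489 over the other settings tried). The groups did not overlap, and the low end of that range came from a test of the brighter genes alone. Against the regular diet the extract group differed by 0.08 ± 0.09 (95% confidence interval -0.12 to 0.28; limma adjusted p = 0.759), and those groups overlapped.

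The other members of this class lay under background on every array. Cxcl2, an inflammatory neutrophil attractant like Cxcl1, read 3.80, 4.38 and 4.09 on the regular diet, 4.26, 4.23 and 4.01 on the high-fat diet, and 4.21, 3.90 and 3.98 with extract. Cxcl5, which also acts through CXCR2, ran from 4.18 to 4.402 over the 9 arrays, and Cxcl15 from 3.06 to 3.42. The groups overlapped for both. Cxcl3, at 1.90 to 2.87, was among the dimmest probe sets, and its difference of 0.46 ± 0.18 between extract and regular diet (limma adjusted p = 0.362) lies in that range and was 0.24 without extract replicate 2. Cxcr2, the receptor for this class, read 4.64, 4.50 and 4.16 on the regular diet, 4.37, 4.08 and 4.28 on the high-fat diet, and 4.79, 4.18 and 4.43 with extract. Its related receptor gene Cxcr1 ran from 4.01 to 4.57. Both receptors had every group mean under background, and their groups overlapped.

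**Figure D3:**
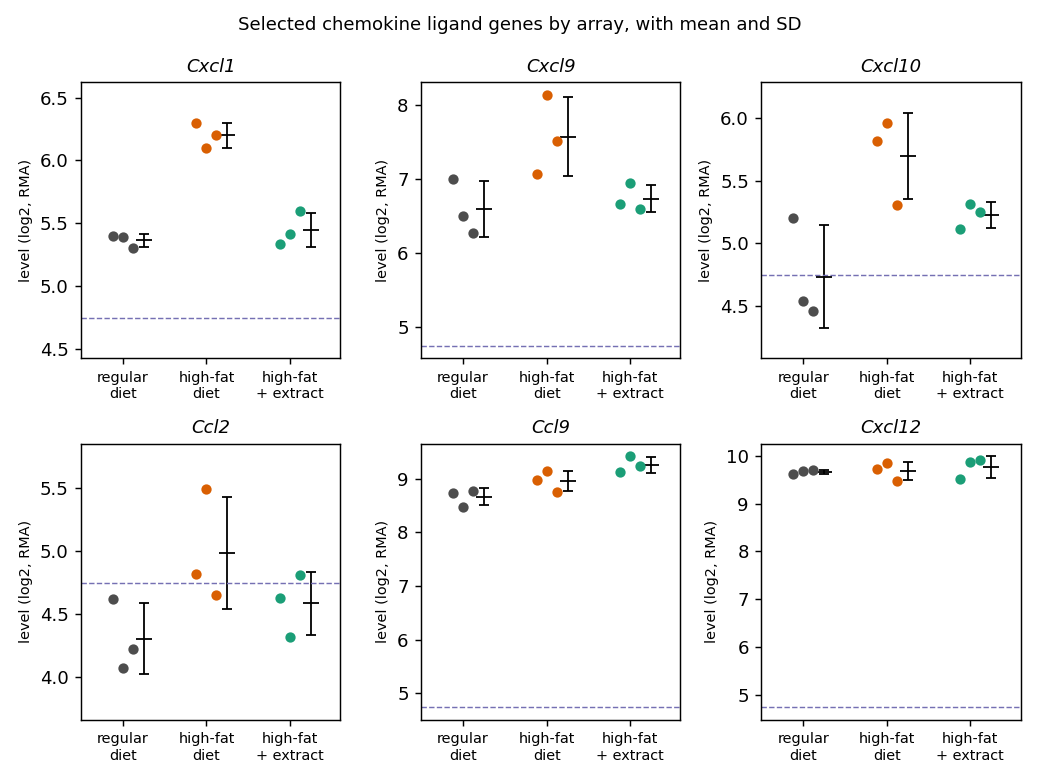
Level of 6 ligand genes on every array (log2 RMA, 1 point per array) with the mean and SD of each diet group beside the points, and the background level dashed. Each panel has its own vertical range. Cxcl1 and Cxcl9 on the high-fat diet stand above both other groups, Cxcl10 and Ccl2 cross the background level, Ccl9 is highest in 2 of 3 extract arrays, and Cxcl12 overlaps between groups.

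The interferon-induced ligands of CXCR3, a receptor of activated T cells and natural killer cells, were all measured above background in at least 2 groups. Cxcl9 read 7.00, 6.50 and 6.27 on the regular diet, 7.07, 8.14 and 7.52 on the high-fat diet, and 6.66, 6.94 and 6.59 with extract. Every high-fat diet array lay above every other array, although the gap to the highest regular-diet array was small. The means were 6.59 ± 0.37, 7.57 ± 0.54 and 6.73 ± 0.18 (SD, n = 3). The diet difference was 0.98 ± 0.26, or 1.97-fold (limma adjusted p = 0.130), and it was 0.70 without high-fat diet replicate 2. With extract the level was 0.84 ± 0.26 lower than on the high-fat diet, which did not pass (limma adjusted p = 0.720), and differed by -0.56 without that array.

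Cxcl10, the ligand first known as an interferon gamma-induced protein, read 5.20, 4.54 and 4.46 on the regular diet, 5.82, 5.96 and 5.30 on the high-fat diet, and 5.11, 5.31 and 5.25 with extract. The high-fat diet arrays lay above the regular-diet arrays, and the extract arrays overlapped both groups. Its diet difference was 0.96 ± 0.21, or 1.94-fold, which missed the threshold (limma adjusted p = 0.0715). Without regular-diet replicate 1, which read highest of its group, the difference was 1.19 and passed (limma adjusted p = 0.0202), and among the brighter genes alone it passed as well (limma adjusted p = 0.0344). Over all settings the adjusted p ran from 0.0202 to 0.217. Between extract and high-fat diet Cxcl10 differed by -0.47 ± 0.21 (limma adjusted p = 0.833) and between extract and regular diet by 0.49 ± 0.21 (limma adjusted p = 0.405).

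Cxcl11, the remaining ligand of this class, read 5.81, 5.52 and 5.25 on the regular diet, 5.81, 5.98 and 5.49 on the high-fat diet, and 5.95, 5.72 and 5.22 with extract, so its groups overlapped. RefSeq lists Cxcl11 as a transcribed pseudogene in the reference strain. Cxcr3 itself read 4.56, 4.29 and 4.45, then 4.51, 4.83 and 4.35, and then 4.73, 4.45 and 4.56 in the same order of groups. Its group means of 4.43, 4.56 and 4.58 were all under background.

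Among the 4 ligands of the monocyte chemoattractant class, Ccl2 had the largest diet difference. Ccl2, the main ligand of CCR2, read 4.62, 4.07 and 4.22 on the regular diet, 4.82, 5.49 and 4.65 on the high-fat diet, and 4.63, 4.31 and 4.81 with extract. High-fat diet replicate 2 was the highest array and the regular-diet arrays were all under background. The diet difference was 0.68 ± 0.23 (limma adjusted p = 0.221) and was 0.43 without that array, and the difference with extract was -0.40 ± 0.23 (limma adjusted p = 0.852) and -0.15 without it. Ccl7, another CCR2 ligand, was above background on all arrays, with 5.76, 5.47 and 5.19 on the regular diet, 5.82, 5.63 and 5.46 on the high-fat diet, and 5.64, 5.63 and 5.89 with extract, and its groups overlapped. Ccl8 was under background throughout, at 3.95 to 3.98 on the regular diet, 3.86 to 3.92 on the high-fat diet and 3.58 to 3.92 with extract, and its difference of -0.23 ± 0.09 between extract and regular diet did not pass (limma adjusted p = 0.349) and was -0.15 without extract replicate 3. Ccl12 ran from 2.79 to 3.41. Ccr2, the receptor that lets monocytes leave the bone marrow, ran from 3.22 to 3.56 over the 9 arrays, under background in each group.

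The macrophage inflammatory protein class holds 5 ligands here, and Ccl9, a rodent ligand of CCR1, had the largest of all extract against regular diet differences among the 52 genes. It read 8.72, 8.48 and 8.78 on the regular diet, 8.98, 9.13 and 8.75 on the high-fat diet, and 9.12, 9.41 and 9.24 with extract. The extract arrays all lay above the regular-diet arrays, and the high-fat diet arrays lay between with overlap on both sides. The means were 8.66 ± 0.16, 8.95 ± 0.19 and 9.26 ± 0.15 (SD, n = 3). Extract against regular diet differed by 0.60 ± 0.12 (limma adjusted p = 0.0952, from 0.0436 among the brighter genes to 0.288 over the settings). The diet difference was 0.29 ± 0.12 (limma adjusted p = 0.350), and the extract against high-fat diet difference was 0.30 ± 0.12 (limma adjusted p = 0.802). Unlike Cxcl1 and Cxcl9, Ccl9 had its highest mean in the extract group.

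Ccl3, known as macrophage inflammatory protein 1-alpha, read 4.31, 4.13 and 4.37 on the regular diet, 4.54, 5.08 and 4.37 on the high-fat diet, and 4.36, 4.37 and 4.37 with extract. Only high-fat diet replicate 2 was above background, and the diet difference of 0.40 ± 0.16 (limma adjusted p = 0.319) was 0.19 without it. Ccl4, its close relative, ran from 4.28 to 4.72. Ccl5, made by T cells and macrophages, read 5.63, 5.63 and 5.88, then 5.43, 5.89 and 5.63, and then 5.64, 5.60 and 5.55, with overlap between all groups. Ccl6, a rodent relative of Ccl9, read 5.02, 5.16 and 5.45, then 5.18, 5.27 and 4.63, and then 5.16, 5.22 and 5.16. Ccr1, a receptor for several of these ligands, ran from 3.11 to 3.39, and its group means were under background.

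The eotaxins attract eosinophils through CCR3. Ccl11 ran from 4.68 to 4.89 on the regular diet, 4.74 to 5.02 on the high-fat diet and 4.50 to 5.03 with extract, close to background in every group. Ccl24 ran from 4.48 to 4.99 and Ccl26 from 2.89 to 3.89 over the 9 arrays, and the groups of all 3 eotaxin genes overlapped. Ccr3 ran from 1.64 to 2.34, the lowest signal of the receptors. Its arrays did not overlap between the high-fat and the regular diet, at a level where differences are not told from background.

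The 11 ligands of leukocyte homing and tissue upkeep had 0 genes that passed limma's test in any comparison, with 3, 1 and 1 at an unadjusted p under 0.05 for diet, extract against high-fat diet and extract against regular diet, where all genes had 13.3%, 5.98% and 12.1%. Cxcl12, which retains cells that carry CXCR4, had the highest signal of the 52 probe sets, with 9.62, 9.68 and 9.69 on the regular diet, 9.73, 9.84 and 9.48 on the high-fat diet, and 9.51, 9.87 and 9.91 with extract. Those groups overlapped. Cxcl13, the B cell attractant that acts on CXCR5, read 5.29, 5.87 and 6.20 on the regular diet, 5.49, 5.15 and 5.19 on the high-fat diet, and 5.20, 5.72 and 5.49 with extract. It had the largest negative diet difference of the 52, -0.51 ± 0.22 (limma adjusted p = 0.360), and ran from -0.76 without regular-diet replicate 1 to -0.30 without regular-diet replicate 3.

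Cxcl14, a chemokine made constitutively by many epithelia, read 4.76, 4.88 and 5.08 on the regular diet, 5.06, 5.21 and 5.32 on the high-fat diet, and 5.08, 5.08 and 5.24 with extract, a diet difference of 0.29 ± 0.10 (limma adjusted p = 0.266). Ccl25, the ligand of the gut-homing receptor CCR9, stayed between 6.06 and 6.32. Ccl27a, a ligand of the skin-homing receptor CCR10, read 5.17, 5.03 and 4.55, then 5.37, 5.34 and 5.07, and then 5.44, 5.29 and 5.23. It had 2 probe sets, and the mouse genome holds near-identical copies of this gene, so its value is uncertain. The brighter probe set, used here, differed by 0.35 ± 0.15 for diet and by 0.41 ± 0.15 for extract against regular diet (limma adjusted p = 0.376 and 0.331), and the other by 0.08 and -0.18. Without regular-diet replicate 3 the brighter probe set differed by 0.17 and 0.23. The remaining 6 genes of the class, Cxcl17, Ccl1, Ccl17, Ccl20, Ccl22 and Ccl28, lay under background on every array, between 3.15 and 4.63. Ccl22, a ligand of CCR4 on regulatory T cells, read 3.90, 3.99 and 3.90, then 4.09, 4.10 and 3.78, and then 3.59, 3.90 and 3.68, and extract differed from high-fat diet by -0.27 ± 0.11 (limma adjusted p = 0.802).

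Cxcl16 and Cx3cl1 are made as membrane-anchored proteins with a chemokine head and can be shed. Cxcl16 was above background, with 6.48, 6.56 and 6.77 on the regular diet, 6.38, 6.58 and 6.50 on the high-fat diet, and 6.26, 6.68 and 6.39 with extract, and its receptor gene Cxcr6 was under it at 3.02 to 3.68. Cx3cl1, known as fractalkine, ran from 4.26 to 4.69, under background on every array. Its receptor gene Cx3cr1, found on patrolling monocytes and on resident macrophages of several tissues, had the highest signal among the receptors, with 5.33, 5.61 and 5.61 on the regular diet, 5.61, 5.81 and 5.73 on the high-fat diet, and 5.61, 5.43 and 5.52 with extract. The Cx3cr1 groups touched or overlapped in each comparison. Xcl1, the C family ligand, ran from 4.4025 to 4.61, and Xcr1, its receptor on cross-presenting dendritic cells, from 4.21 to 4.44. Both lay under background on all arrays.

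Of the 18 receptor genes 15 had every group mean under background, and 12 had every array under it. None of the 18 passed limma's test in any comparison, and at an unadjusted p under 0.05 there were 1 for diet, 0 for extract against high-fat diet and 0 for extract against regular diet, where all genes had 13.3%, 5.98% and 12.1%. Cxcr4 read 5.26, 5.12 and 5.43 on the regular diet, 5.26, 5.36 and 5.26 on the high-fat diet, and 4.60, 5.12 and 5.40 with extract, so the lowest value was extract replicate 1. Cxcr5, the follicular homing receptor of B cells, ran from 4.57 to 4.80. Ccr7, which guides dendritic cells and naive T cells to lymph nodes, read 4.51, 4.55 and 4.38 on the regular diet, 4.71, 4.61 and 4.91 on the high-fat diet, and 4.53, 4.80 and 4.73 with extract. Its diet difference was 0.27 ± 0.10 (limma adjusted p = 0.300), and 7 of its 9 arrays were under background. The other CC receptor genes ran from 2.18 to 3.87 (Ccr1l1, Ccr4, Ccr6, Ccr8, Ccr9 and Ccr10). Those 6 genes lay below the odorant receptor level in every group.

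**Figure D4:**
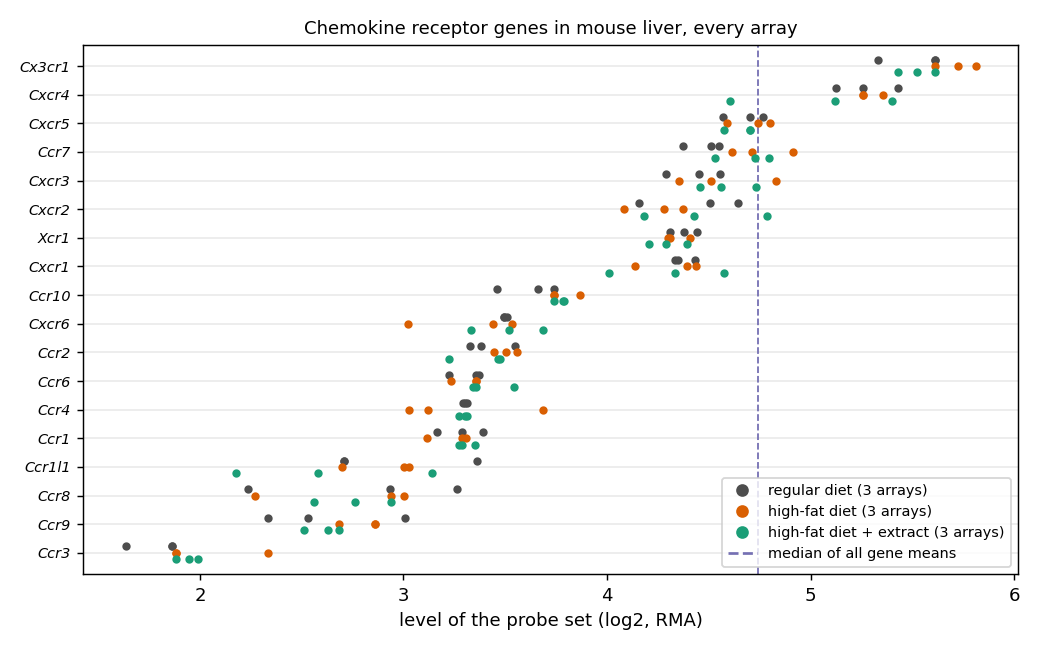
Level of each of the 18 chemokine receptor genes (rows) on every array, as log2 RMA value, with 3 points per diet group and the background level of 4.74 dashed. Cx3cr1 and Cxcr4 are the rows with every group mean right of the line, and the group means of the other rows lie left of it, except that of Ccr7 on the high-fat diet, at 4.746.

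The extract was assessed on the high-fat background, by setting the extract group against the vehicle group on that diet. Of the 52 genes 0 passed in limma, where 0.00451% of all genes did, which is 1 gene. At an unadjusted p under 0.05 there were 4 (7.69%), against 5.98% of all genes. Cxcl1, Cxcl9 and Ccl22 were lower with extract (5.77%, against 3.4% of all genes) and Ccl9 higher (1.92%, against 2.58%). The groups did not overlap for Cxcl1 and Cxcl9, both lower (3.85%), against 9.69% of all genes in either direction and 5.27% lower. Differences were positive for 22 of the 52 (42.3%), against 49.4% of all genes, and the median was -0.04. Among the 20 genes at or above background in some group, 7 were higher and 13 lower, with a median of -0.06. Ccl2 and Ccr7 are in this set through the high-fat diet mean alone, and Ccl24 through the extract mean alone. The signs therefore depend in part on how the set was chosen, and no result is read from it. Array weights brought Cxcl1 under the threshold (-0.77, limma adjusted p = 0.0470), as did the brighter genes alone (limma adjusted p = 0.0318). This comparison shares the high-fat diet arrays with the diet comparison, so a high array of that group enters both with opposite sign.

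The extract group was also set against the regular diet, a comparison in which diet and extract differ together. Of the 52 genes 0 passed in limma, where 0.442% of all genes did, and 5 (9.62%) had an unadjusted p under 0.05, against 12.1% of all genes. They were Ccl9, Ccl27a, Cxcl10 and Cxcl3, which were higher (7.69%, against 5.79% of all genes), and Ccl8, which was lower (1.92%, against 6.26%). The groups did not overlap for 5 genes (9.62%) either, against 14.6% of all genes. Ccl9, Ccl27a and Ccr3 lay higher (5.77%, against 7% of all genes) and Ccl8 and Ccl25 lower (3.85%, against 7.62%). Differences were positive for 31 of the 52 (59.6%), against 50.3% of all genes. Cxcl9 differed by 0.14 ± 0.26 (limma adjusted p = 0.880), and its sign turned, to -0.02, without regular-diet replicate 3. Ccl2 differed by 0.28 ± 0.23 (limma adjusted p = 0.685), and by 0.17 without regular-diet replicate 2.

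Other genes of the pathway were counted in 5 lists, and 0 of their genes passed limma's test in any comparison. For the diet, 50.1% of all genes had a positive difference and 13.3% an unadjusted p under 0.05. Of 11 atypical and otherwise named chemokine genes, the high-fat diet had the higher mean for 9, 1 with an unadjusted p under 0.05. This was Ackr3, a scavenging receptor for CXCL12, which differed by 0.34 ± 0.10 (limma adjusted p = 0.159). The regular-diet and extract means of Ackr3, 4.43 and 4.68, were under background, as were 7 of its 9 arrays. Receptor signalling genes split into 10 higher and 10 lower, with a median of 0.01. Of the 9 genes for shedding and cleavage of chemokines 6 were higher, led by Mmp12, a macrophage metalloelastase that cleaves chemokines. Its group means were all under background, and 8 of 9 arrays were. Mmp12 read 3.77, 3.37 and 4.46 on the regular diet, 4.35, 5.10 and 4.73 on the high-fat diet, and 3.95, 4.10 and 4.02 with extract. It differed by 0.86 ± 0.26 for diet (limma adjusted p = 0.172) and by -0.70 ± 0.26 for extract against high-fat diet (limma adjusted p = 0.785).

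Of 18 genes of NF-kappaB and its inputs, the high-fat diet had the higher mean for 13, and 3 had an unadjusted p under 0.05 (13.3% of all genes did), with a median of 0.11 where that of all genes was 0.00. Myd88, the adaptor of Toll-like and interleukin 1 receptors, differed by 0.41 ± 0.15 (limma adjusted p = 0.272), and by 0.26 without high-fat diet replicate 1. Tnf, a cytokine that activates NF-kappaB, differed by 0.24 ± 0.10 (limma adjusted p = 0.325) with every array under background, and by 0.14 without regular-diet replicate 3. Between extract and high-fat diet 6 of the 18 were higher and 12 lower. Of these Nfkbiz alone had an unadjusted p under 0.05 (-0.26 ± 0.10, limma adjusted p = 0.802), where 5.98% of all genes did. Il1b had its highest mean with extract, 5.07 against 4.63 on the regular diet (limma adjusted p = 0.358) and 4.75 on the high-fat diet. Of 9 interferon genes 6 were higher, and 2 had an unadjusted p under 0.05, where 13.3% of all genes did. Irf7, an interferon-induced regulator, differed by 0.48 ± 0.18 for diet and by -0.41 ± 0.18 for extract against high-fat diet (limma adjusted p = 0.271 and 0.815), the latter -0.26 without extract replicate 1. In that comparison 2 of the 9 were higher and 7 lower, and 3 had an unadjusted p under 0.05. Besides Irf7 these were Ifngr2, lower by 0.31 ± 0.12, and Ifnar2, higher by 0.18 ± 0.08 (limma adjusted p = 0.802 and 0.829). Ifnar2 differed by -0.15 ± 0.08 for diet. Stat2, which carries type I interferon signals, differed by 0.39 ± 0.14 for diet (limma adjusted p = 0.257), and by 0.24 without regular-diet replicate 2. It passed under 1 of 19 other settings, without regular-diet replicate 1 (0.55, limma adjusted p = 0.0419).

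The cells that carry or make chemokines were followed through marker lists. Alb, the albumin gene that marks hepatocytes, averaged 13.5 in every group. The mean level of all 10 hepatocyte markers was 11.50 to 11.51 on the regular diet, 11.38 to 11.46 on the high-fat diet and 11.49 to 11.52 with extract, so the high-fat diet arrays lay below the other 6. Of these markers Cps1, Ass1 and Hnf4a lay lower on the high-fat than on the regular diet without overlap, and Apoa2 higher. Of all genes 7.86% lay lower and 7.93% higher in that way. Of 9 neutrophil markers 8 had every group mean under background, and their mean level ran from 3.17 to 3.27 on the regular diet, 3.25 to 3.29 on the high-fat diet and 3.24 to 3.35 with extract. Csf3r, also found on other myeloid cells, was the exception, at 4.84 to 4.91. For diet 7 of the 9 were higher and 2 lower, 0 passed limma's test and 0 had an unadjusted p under 0.05. With 8 of 9 under background, a change in these markers could hardly be seen on these arrays. In a bulk sample fewer cells of a type and less RNA per cell cannot be told apart.

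Markers of monocytes and recruited macrophages had their highest mean level in the high-fat diet group, as did Cxcl1, Cxcl9, Cxcl10 and Ccl2. Of 10 such genes, the high-fat diet had the higher mean for 9 with a median difference of 0.36, 10 were lower with extract than on the high-fat diet with a median of -0.28, and 0 passed limma's test in either comparison. At an unadjusted p under 0.05 there were 5 in each, where all genes had 13.3% for diet and 5.98% for extract against high-fat diet. Their mean level was 4.97 to 5.28 on the regular diet, 5.32 to 5.61 on the high-fat diet and 4.99 to 5.11 with extract, so the high-fat diet arrays lay above the other 6. Itgam, Itgax and Chil3 had every group mean under background, and Ly6c2 and Gpnmb those of the regular diet and extract groups. The same 5 genes were counted in both comparisons, Ly6c2, Itgax, Chil3, Plac8 and Gpnmb. Of these Plac8 alone had every group mean above background, so most of these differences lie near it. Both comparisons share the high-fat diet arrays, here and in the lists below, so opposite signs in them are not independent. The lists were also chosen with earlier results of these data known, so their counts are a description beside the shares of all genes. Kupffer cell markers, with 3 of 9 higher, ran from 6.60 to 7.23, 6.77 to 7.05 and 6.61 to 7.16 and overlapped. Of 12 markers of T and NK lymphocytes 9 had every group mean under background, and their mean level ran from 3.95 to 4.15 over the arrays. The part of these cells in the levels of Cxcl1, Cxcl9, Cxcl10 and Ccl2 was not tested.

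In the stellate cell list 2 of 10 genes rose on the high-fat diet, where 0.821% of all genes rose. They were the collagen genes Col1a1 (0.85 ± 0.12, limma adjusted p = 0.0152) and Col3a1 (1.14 ± 0.14, limma adjusted p = 0.0115), though the list's median was -0.04. These calls were lost in 5 and 2 of 19 other settings. Between extract and high-fat diet 0 of the 10 passed limma's test, and 7 had an unadjusted p under 0.05 where 5.98% of all genes did. There Col1a1 (mean 5.68 with extract, 6.73 without) and Col3a1 (6.04 and 7.19) lay lower with extract without overlap, and Lrat, Reln, Hgf and Ecm1 higher. Of all genes 5.27% lay lower without overlap in that comparison, and 981 of 22180 higher.

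Of the hepatocyte markers, Cps1, an enzyme of the urea cycle, fell by 0.66 ± 0.10 on the high-fat diet (limma adjusted p = 0.0224), a call lost in 6 of 19 other settings, where 0.518% of all genes fell. Of 8 markers of sinusoidal endothelial cells 6 were lower on the high-fat diet and 6 higher with extract than without, and 0 passed limma's test. At an unadjusted p under 0.05 there were 4 and 3, where all genes had 13.3% and 5.98%. Kdr, the receptor for vascular endothelial growth factor, averaged 8.02 on the regular diet, 7.55 on the high-fat diet and 7.97 with extract, and its high-fat diet arrays lay below the other 6. Clec4g and Fcgr2b also lay lower on the high-fat than on the regular diet without overlap, and Fcgr2b and Stab1 higher with extract than without. Of all genes 7.86% lay lower without overlap in the former comparison, and 981 of 22180 higher in the latter. The part of stellate, endothelial and hepatocyte changes in the chemokine levels was not tested. In the other marker lists 0 genes passed limma's test in any comparison. Array profiles correlated at 0.991 to 0.994 within groups and 0.987 to 0.993 between groups across genes, and no array was left out.

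**Figure D5:**
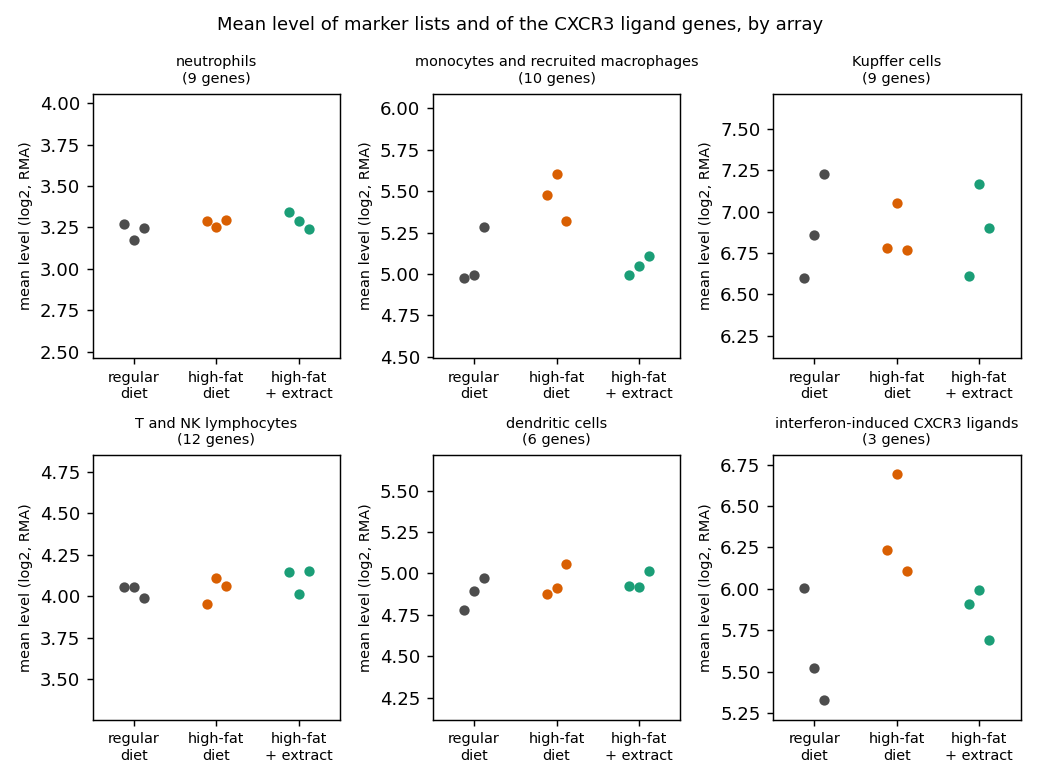
Mean log2 RMA level of 5 marker lists and of the 3 CXCR3 ligand genes on every array, with 3 points per diet group and a vertical range of its own in each panel. The high-fat diet arrays lie above the other 6 for markers of monocytes and recruited macrophages (5.32 to 5.61 against 4.97 to 5.28) and for the CXCR3 ligands (6.10 to 6.69 against 5.33 to 6.01), and they overlap the others for neutrophil, Kupffer, lymphocyte and dendritic cell markers.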

How the data were processed

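Expression was measured on 9 arrays of mouse liver RNA, 3 per group. Each deposited value is a log2 level of a probe set, computed by the authors with RMA in oligo, an R package, according to the submitters' processing notes (versions not stated there). RMA corrects for background, equalises the distributions of the arrays and condenses the probes of a set. A change common to most genes therefore disappears, and a probe set with little signal still gets a value close to background. No genome build of the probe sets is named in these sources. The number of arrays, 3 a group, limits the precision.

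Of 41345 probe sets, 23521 had 1 symbol in the array's annotation table, 1814 several and 16010 none. The first kind was used, with the probe set of the highest mean standing for a gene, which left 22180 genes. The test was limma 3.58.1 (R 4.3.3) with group means fitted to all 9 arrays (6 residual and 3.28 prior degrees of freedom), two-sided, with Benjamini-Hochberg adjustment over all genes. No exact permutation test of 1 gene was used, since in groups of 3 it cannot give less than p = 0.1. Alternatives changed the moderation, the dim-gene filter, the probe set rule, the scaling, array weights, a replicate block, the threshold, the arrays fitted, or left out each array.

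The genes and the lists were chosen with earlier results of these data known. Named with values were genes that passed, the 4 brightest ligands and receptors, the 3 of smallest p in each comparison, and known ligand and receptor pairs. Names, promoters and gene types came from RefSeq tables of GRCm38.p6, which held 51 of the 52 symbols as protein-coding genes. Protein sequences were not used here.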

Additional observations from a re-analysis of the deposited data

How the results depend on the processing

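Other settings were tried 856 times over 46 single-gene results, and some changed the threshold alone, without a refit. Of these, 833 kept their direction and their side of the threshold. A call was lost in 13 and gained in 9, and 1 turned its sign. Most of the 46 results had not passed to begin with, so the 833 is no measure of how stable the calls were. All 13 losses fell on Cps1, Col1a1 and Col3a1 for the diet (6, 5 and 2 of 19 settings). Cxcl1 passed for the diet in all 19 other settings, at 0.78 to 0.89. The count of chemokine genes that passed was 1 for the diet, and 2, with Cxcl10, among the brighter genes and at an adjusted p under 0.10, with 1 to 2 when arrays were left out in turn (2 without regular-diet replicate 1). For extract against high-fat diet it was 0, and 1 (Cxcl1) among the brighter genes, with array weights and at an adjusted p under 0.10, and 0 with any array left out. For extract against regular diet it was 0, and 1 (Ccl9) among the brighter genes and at an adjusted p under 0.10. The F test gave 1, and 0 to 2 with arrays left out (0 without regular-diet replicate 2 or high-fat diet replicate 3, 2 without regular-diet replicate 1). Testing brighter genes alone means fewer genes in the adjustment, and the cause of the other shifts was not tested. Cxcl9 for extract against regular diet ran from -0.019 (without regular-diet replicate 3) to 0.35 with arrays left out. With the replicate number as a block, the counts of chemokine genes were 1, 0, 0 and 1 for diet, extract against high-fat diet, extract against regular diet and the F test, as without it, while over all genes 201, 1, 68 and 82 passed in place of 297, 1, 98 and 173. Arrays of the same number deviated from their group means with correlations of -0.05 to 0.17 across genes, 1 of 9 over 0.1. For arrays of other numbers the correlations were -0.13 to 0.13, 1 of 18 over 0.1. With 3 arrays a group these values cannot decide whether the number stands for a pairing or a batch. Signal near background limits the 32 dim genes, 22 by the odorant receptor level.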

Other observations

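Probe sets that carry several symbols were left out of the comparisons, and 33 of them name copies of Ccl19, Ccl21 or Ccl27, which the mouse genome holds in near-identical sets. The Ccl19 and Ccl21 proteins guide CCR7-bearing cells to lymph nodes. On single arrays the 13 probe sets for Ccl19 read 3.96 to 6.10, the 9 for Ccl21 5.27 to 6.40 and the 11 for Ccl27 4.55 to 6.61. Some of these probe sets carry identical values, so the 13, 9 and 11 held 9, 5 and 9 distinct rows. In a limma fit over 25335 probe sets 0 of the 33 passed in any comparison, and the smallest adjusted p was 0.398, 0.825 and 0.295 in that order. Diet differences ran from -0.22 to 0.27 for Ccl19, from -0.02 to 0.03 for Ccl21 and from -0.22 to 0.35 for Ccl27. The Ccl27 values of 4.55 and 0.35 are also those of the Ccl27a probe set used above, so they are not separate evidence.

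Many chemokine genes sit beside each other, and 30 of the genes followed here form 8 runs of adjacent protein-coding genes in RefSeq. In the run of Cxcl3, Cxcl15, Cxcl1 and Cxcl2 the diet differences were 0.07 to 0.83 and Cxcl1 was the gene that passed. In the run of Ccl2, Ccl7, Ccl11, Ccl12, Ccl8 and Ccl1 they were -0.15 to 0.68, in that of Ccl5, Ccl9, Ccl6, Ccl3 and Ccl4 -0.19 to 0.40, and 0 genes passed in either.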
